A study of Homo sapiens with 7 samples.

Results

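Guide 2, a guide RNA aimed at an enhancer of TMCC2, was compared with a non-targeting guide in HUDEP-2 cells, over all genes of a table of raw read counts. The comparison took the 2 libraries labelled guide 2 and the 3 labelled non-targeting, 5 of the 7 libraries of the series; the other 2 carried guide 1, aimed at the same regulatory region. HUDEP-2 is an immortalised line of human erythroid progenitors from umbilical cord blood that matures towards red cells when its medium is changed, and all 7 libraries came from this 1 line. In each group the cells were grown with stem cell factor, erythropoietin, dexamethasone and doxycycline, infected with lentivirus for CRISPR interference, and moved for 72 h to an erythroid medium holding plasma, serum, transferrin, heparin, insulin and 3 IU/ml of erythropoietin. The labels place the guides' target upstream of the erythroid isoform of TMCC2 and do not name the repressor, so the non-targeting libraries share the infection, the medium and the interference system with the guide 2 libraries and differ in the guide. The labels do not say whether the replicates were separate cultures, and p-values measure the spread between these libraries, which may be technical.

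In CRISPR interference, a guide RNA leads a Cas9 that cannot cut to its matching DNA, where it lowers transcription from that site or from the gene that an enhancer there serves. TMCC2 encodes a transmembrane and coiled-coil protein of the endoplasmic reticulum that is strongly expressed in maturing erythroid cells. These cells devote much of their messenger RNA to globin chains, and adult-type cells such as HUDEP-2 make mostly HBB, the adult beta chain, with little of the fetal gamma chains HBG1 and HBG2. In bulk RNA, fewer cells of a type and less RNA per cell cannot be told apart.

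The guides are shown because they are the sole labelled difference between the groups. Capitals mark the 12 bases at the 3′ end, which lie next to the motif that Cas9 needs on the DNA and tolerate mismatches least. Guide 2 was 20 bases long and the non-targeting guide 21. Neither had an exact match in 35116 promoter windows of RefSeq (GRCh38.p14) on either strand; the genomic site of guide 2 was not analysed here.
guide 2: ccatccttCAGAGTAAACAG
non-targeting: atcgcgaggACCCGTTCCGCC

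TMCC2 itself has 6 start sites in the RefSeq promoter table (GRCh38.p14, chromosome 1, plus strand). The 250 bases before its first start and before the start with the most matches to a GATA element, the fifth, are printed because TMCC2 is the gene of smallest p. Capitals mark the letters AGATAA or AGATAG and the letters TGATAA or TGATAG on either strand, the element read by GATA1, the master factor of erythroid cells. Of all 35116 windows of this length, 22.3% held such a match.
TMCC2 first start, chr1:205227696-205227945: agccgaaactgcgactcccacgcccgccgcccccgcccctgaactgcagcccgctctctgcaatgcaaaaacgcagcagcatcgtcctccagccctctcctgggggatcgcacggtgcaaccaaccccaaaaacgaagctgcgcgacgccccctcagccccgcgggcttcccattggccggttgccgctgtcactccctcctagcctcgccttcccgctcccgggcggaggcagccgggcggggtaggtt
TMCC2 other start, chr1:205255952-205256201: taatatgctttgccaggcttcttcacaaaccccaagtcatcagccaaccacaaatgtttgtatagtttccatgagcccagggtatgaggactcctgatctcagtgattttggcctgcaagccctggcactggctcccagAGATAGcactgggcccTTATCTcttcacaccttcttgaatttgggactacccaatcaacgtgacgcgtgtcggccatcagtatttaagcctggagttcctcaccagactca
The first window held 0 matches and a GC content of 69.2%, and the other held 2 and a GC content of 49.6%. The counts are per gene and do not separate the starts.

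Library totals ran from 9780800 to 11350113 counts, and globin genes took 23.0% to 26.9% of them. A control library, non-targeting replicate 1, was unlike the remaining libraries. Its levels fell with the GC content of the transcripts (Spearman rho of the deviation from the mean library, -0.68 across genes), while rho was 0.42 and 0.32 in non-targeting replicates 2 and 3 and 0.08 and -0.31 in guide 2 replicates 1 and 2. Its mean Pearson correlation with the other libraries was 0.981, against 0.987 to 0.988 in the remaining 6, and MALAT1, a nuclear RNA, took 0.191% of its counts against 0.0668% to 0.1% elsewhere. The comparison is given with and without it, as the definition of the comparison asked. The erythroid markers HBB, HBA2, ALAS2, SLC4A1 and GATA1 were all detected in every library. Markers of other cells were summed in CPM (counts scaled to a common library size), here by total counts alone. The 8 of neutrophils and monocytes summed to 1.53 to 2.29 CPM in the non-targeting libraries and 0.763 to 3.50 CPM with guide 2, with 3 of them at 0 in every library. The 6 of lymphocytes summed to 0.282 to 1.12 CPM and 0.680 to 0.859 CPM, with 4 at 0. The 9 megakaryocyte and platelet markers summed to 177 to 208 CPM against 183 to 198 CPM, with 4 at 0, and 5 mast cell markers to 9.69 to 12.1 CPM against 7.63 to 8.64 CPM, with 2 at 0. The 7 stromal and endothelial markers summed to 1.41 to 2.82 CPM against 1.72 to 2.23 CPM, with 4 at 0, and the 4 markers of the HEK293 packaging line to 12.6 to 14.9 CPM against 11.7 to 12.6 CPM, with none at 0.

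**Figure D1:**
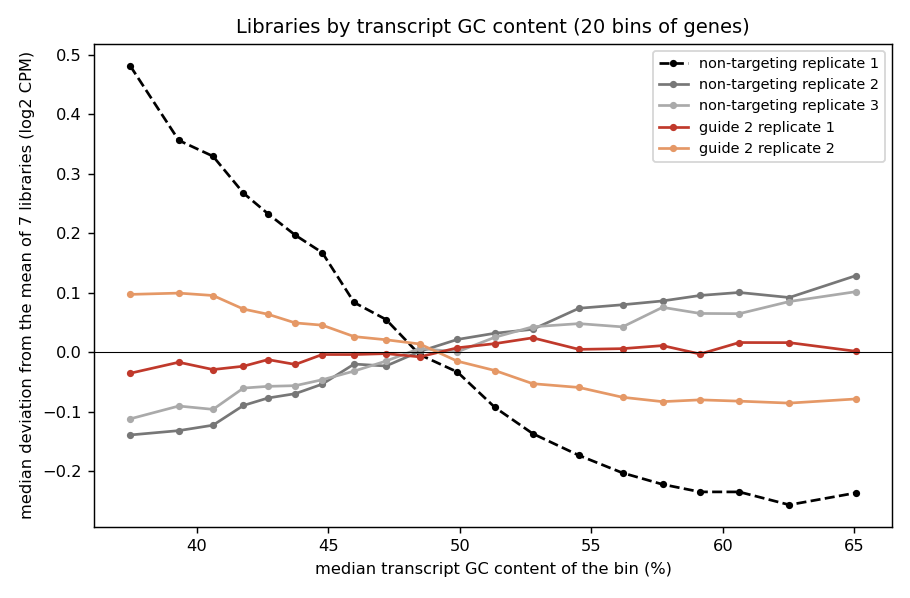
Median deviation of log2 CPM from the mean of the 7 libraries (vertical axis) in 20 bins of genes ordered by transcript GC content (horizontal axis, percent), with 1 line per library for the 3 non-targeting and 2 guide 2 libraries. Non-targeting replicate 1 (dashed) slopes down across the whole range, opposite to the other 2 non-targeting libraries, and the 2 guide 2 libraries lie between them.

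TMCC2 fell with guide 2 and, with all 7 libraries in the fit, no other gene passed. Genes were tested with edgeR's quasi-likelihood test and are named as called where the p, adjusted by Benjamini-Hochberg across every gene in the fit, was under 0.05. Of 10212 genes, 1 was called (0.00979%), TMCC2, and 0 were called higher; 281 genes (2.75%) had an unadjusted p under 0.05, 119 of them lower (1.17%) and 162 higher (1.59%). On the same libraries DESeq2 called TMCC2 and FOS lower and CROCCP2 higher, and limma-voom called TMCC2 alone. CROCCP2 is a pseudogene, a kind of gene the naming rule leaves out, and was chosen after its values were seen. It stood at 33.6, 39.2 and 33.6 CPM in the controls and at 56.0 and 58.9 CPM with guide 2, above every control (log2 fold change 0.70, adjusted p = 0.362 by edgeR). Without non-targeting replicate 1, 128 of 10107 genes were called (1.27%), 90 lower (0.89%) and 38 higher (0.376%). The biological coefficient of variation was 12.5% with that library and 6.06% without it.

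Non-targeting replicate 1 lay below the mean of the other 2 non-targeting libraries in 89 of the 90 genes called lower and above it in 31 of the 38 called higher. Both guide 2 libraries were below all 3 non-targeting libraries in 21 of the 90, and above all 3 in 25 of the 38. Over all genes tested, these shares were 6.86% and 8.16%. With all 7 libraries, the fold change kept its sign in all 90 and in 36 of the 38. An unadjusted p under 0.05 was found there in 46 of the 128, against 2.75% of all genes. That fit holds every library that gave these calls and adds only replicate 1, so such agreement was largely fixed by the choice. The lower genes had a median transcript GC content of 58.4% and the higher genes of 43.6%, against 49.2% over all genes tested. With the levels corrected for GC content in each library, 35 genes were called without non-targeting replicate 1 (0.346%), 16 lower (0.158%) and 19 higher (0.188%), and 33 of them were among the 128. Of the 128, 2 are not reported here. A fit of the 4 guide 2 and non-targeting libraries alone, again without replicate 1, called 22 lower and 15 higher. TMCC2 was the 1 gene of the 128 that edgeR also called with all 7 libraries without the GC content correction, and apart from TMCC2 and FOS (adjusted p = 0.0567) no adjusted p there was under 0.362. In the text below, "called" without further words refers to edgeR without that library. DESeq2 without that library called 200 of 10107 genes in either direction. It gave no adjusted p for 37 of the named genes, which it could therefore not call. Genes picked by p below had to lie wholly above or below all 3 controls, so for them that trait was fixed by the choice. Where parentheses hold a pair of log2 fold changes, the first is from all 7 libraries and the second, with its adjusted p, from the fit without replicate 1.

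**Figure D2:**
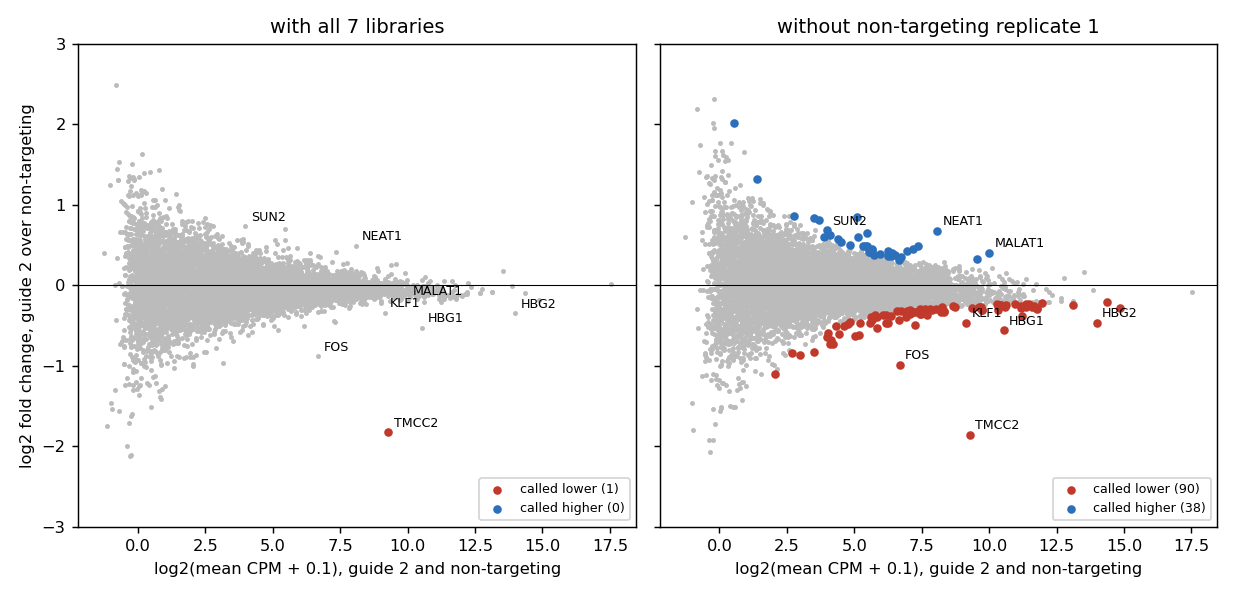
Log2 fold change of guide 2 over non-targeting (vertical axis) against mean level as log2(CPM + 0.1) (horizontal axis) for all genes tested, with all 7 libraries (left) and without non-targeting replicate 1 (right); coloured points were called. TMCC2 is the lone coloured point on the left, and 90 lower and 38 higher genes are coloured on the right.

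TMCC2 stood at 832, 839 and 937 CPM in non-targeting replicates 1, 2 and 3 and at 229 and 260 CPM with guide 2. The groups were far apart, with or without non-targeting replicate 1. The non-targeting mean was 870 ± 58.6 CPM (SD, n = 3). The guide 2 mean of 245 ± 21.9 CPM (SD, n = 2) was 28.2% of the control level. The log2 fold change was -1.83 (SE 0.12, 95% interval -2.08 to -1.58, adjusted p = 1.98e-06), and -1.86 (SE 0.07, adjusted p = 2.57e-20) without replicate 1. TMCC2 was called in all 22 alternative settings, with a log2 fold change from -1.92 to -1.74. Guide 1 left 229 and 219 CPM, and guide 2 over guide 1 was 0.13 on the log2 scale (95% interval -0.13 to 0.39, adjusted p = 0.983, and 0.465 without replicate 1), so a difference between the guides in the level of TMCC2 was not detected.

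No neighbour of TMCC2 was called. Of 20 genes listed for its stretch of chromosome 1, 10 were tested. Apart from TMCC2 their log2 fold changes ran from -0.09 to 1.00 with all 7 libraries and from -0.11 to 1.03 without replicate 1. In the latter fit, 2 of the 10 were higher at an unadjusted p under 0.05, against 6.83% of all genes, and 1 was lower, TMCC2. TMEM81, a small membrane protein gene next to the RBBP5 gene, gave the value of 1.00: it stood at 1.15, 1.26 and 0.862 CPM without the guide and at 2.24 and 2.17 CPM with it. These groups did not overlap, but the level was near 1 CPM and the adjusted p was 0.999, and 0.246 without replicate 1. MDM4, which holds p53 in check, was at 69.2, 59.7 and 59.3 CPM against 65.7 and 65.7 CPM. RBBP5, a core subunit of histone H3 lysine 4 methyltransferases, was at 47.0, 36.5 and 33.3 CPM against 35.8 and 37.9 CPM. For both genes the groups overlapped. TMCC1, the paralog of TMCC2, was close to the detection limit, at 0.883, 1.53 and 0.754 CPM against 1.59 and 0.850 CPM.

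**Figure D3:**
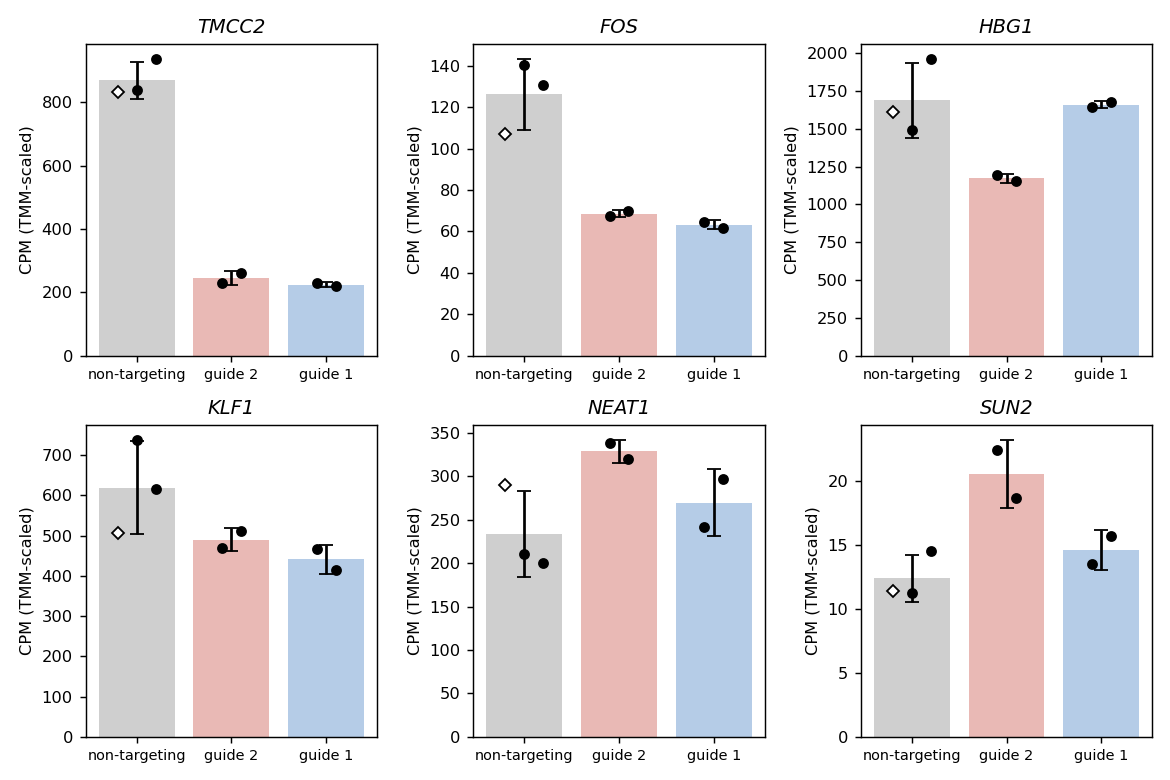
Levels in CPM (vertical axes, from 0) of 6 genes in the non-targeting, guide 2 and guide 1 libraries; bars are means, error bars are SD, points are libraries and the open diamond is non-targeting replicate 1. With guide 2, TMCC2 (229 and 260), FOS (67.3 and 69.7) and HBG1 lie below all 3 non-targeting libraries, NEAT1 and SUN2 lie above them, and KLF1 overlaps with replicate 1.

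FOS led a set of immediate early genes, which are transcribed within minutes of a signal from outside the cell and need no new protein. FOS, part of the AP-1 dimer, stood at 107, 141 and 131 CPM in non-targeting replicates 1 to 3 and at 67.3 and 69.7 CPM with guide 2. Both guide 2 libraries were below every control. The mean was 54.3% of control, or -0.88 (SE 0.13, 95% interval -1.17 to -0.59), which just missed the threshold with all 7 libraries (adjusted p = 0.0567). Without replicate 1 it passed, at -0.99 (SE 0.09, adjusted p = 6.25e-10). Over the 22 alternatives FOS was called in 9, with an adjusted p from 1.79e-20 to 1.00 and a log2 fold change from -1.04 to -0.80. With the GC content correction and all 7 libraries it was called too, at an adjusted p of 2.59e-05, when 2 genes were called lower (0.0196%) and 1 higher of all tested. With guide 1 FOS stood at 64.7 and 61.8 CPM, and the guides differed by 0.11 on the log2 scale (adjusted p = 0.983).

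JUNB, a partner of FOS in AP-1, stood at 159, 200 and 156 CPM against 121 and 133 CPM with guide 2. EGR1, a zinc-finger factor induced by growth factors, was at 85.9, 88.9 and 69.2 CPM against 54.8 and 59.6 CPM, and IER2 at 46.9, 59.9 and 51.7 CPM against 39.3 and 41.3 CPM. In each of these genes both guide 2 libraries lay below all 3 controls. Their log2 fold changes were -0.44, -0.51 and -0.39 with all 7 libraries, where none passed, and -0.49, -0.47 and -0.47 without replicate 1, where each was called (adjusted p = 0.00251, 0.0159 and 0.0167). JUNB was among the genes also called with the GC content correction, and EGR1 and IER2 were not. MYC, the growth regulator, was at 28.6, 27.2 and 28.4 CPM against 21.5 and 18.7 CPM, below all controls but not called (-0.48 and -0.47, adjusted p = 0.0624).

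Across the list of immediate early genes, 18 of 23 tested had a negative fold change with all 7 libraries, against 55.3% of all genes, and in 7 both guide 2 libraries were below all 3 controls, against 6.86% of all genes. The list's median log2 fold change was -0.10, with -0.02 over all genes. Without replicate 1, 4 of 22 were called lower, against 0.89% of all genes, and 0 higher. With the GC content correction 2 were called lower, against 0.158% of all genes. DESeq2, which called 200 of all 10107 genes in either direction, called 2 here, FOS and JUNB. It gave no adjusted p for some genes, EGR1 and IER2 among them. Without replicate 1 the median was -0.16 against 0.01 over all genes. DUSP1, which removes phosphate from MAP kinases, stood at 123, 175 and 110 CPM against 117 and 137 CPM with guide 2, inside the range of the controls, and at 48.3 and 58.7 CPM with guide 1. Guide 2 over guide 1 in DUSP1 was 1.25 on the log2 scale, and passed without replicate 1 (adjusted p = 1.02e-07).

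The windows before FOS and EGR1 are shown because both genes stood below the controls in each guide 2 library. Capitals mark TGACG on either strand, the half-site of the cyclic AMP response element, and the CArG box, the site of serum response factor. TGACG occurred in 21.2% of the 35116 windows and a CArG box in 1.16%.
FOS, chr14:75278578-75278827, plus strand: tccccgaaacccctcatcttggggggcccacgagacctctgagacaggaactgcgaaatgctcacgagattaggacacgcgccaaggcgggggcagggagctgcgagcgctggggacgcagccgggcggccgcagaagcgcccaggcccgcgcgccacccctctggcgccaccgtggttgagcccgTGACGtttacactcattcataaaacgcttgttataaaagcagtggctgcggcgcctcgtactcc
EGR1, chr5:138465229-138465478, plus strand: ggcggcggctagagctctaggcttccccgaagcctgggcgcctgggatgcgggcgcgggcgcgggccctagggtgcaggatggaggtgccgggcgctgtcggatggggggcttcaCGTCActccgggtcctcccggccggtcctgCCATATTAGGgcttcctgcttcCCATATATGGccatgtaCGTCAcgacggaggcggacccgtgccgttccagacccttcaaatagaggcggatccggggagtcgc
The FOS window held 1 TGACG and 0 CArG boxes, and the EGR1 window held 2 of each. Only these 250 bases were searched, so sites further upstream of either gene were not looked for.

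The fetal and embryonic globin genes were called lower with guide 2 once replicate 1 was left out, and the adult beta chain was not called. HBG1 stood at 1610, 1491 and 1963 CPM in the controls, at 1195 and 1152 CPM with guide 2, and at 1643 and 1676 CPM with guide 1. Only the guide 2 libraries lay below all 3 controls. The log2 fold change was -0.52 (SE 0.12, 95% interval -0.78 to -0.27, adjusted p = 0.999), and -0.56 (SE 0.08, adjusted p = 2.69e-05) without replicate 1. HBG1 was called in 6 of the 22 alternatives, with an adjusted p from 9.46e-07 to 1.00. HBG2 stood at 14771, 17786 and 20754 CPM against 13509 and 14433 CPM, also below every control, with a log2 fold change of -0.35 that became -0.46 (SE 0.06, adjusted p = 5.27e-06) without replicate 1. HBG1 and HBG2 are nearly identical, and how the authors assigned reads that fit both is not given in the sources used here, so the split between them is uncertain.

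HBB was at 160392, 197632 and 206488 CPM against 192829 and 186968 CPM, and HBD, the minor adult delta chain, at 3973, 5145 and 5175 CPM against 5015 and 4694 CPM. In both genes the guide 2 values lay between those of replicate 1 and replicates 2 and 3. Their log2 fold changes of 0.01 and 0.03 turned to -0.09 and -0.09 without replicate 1, and neither was called. HBE1, the embryonic epsilon chain, was at 44.0, 63.9 and 82.0 CPM against 50.7 and 49.7 CPM, and HBZ, the embryonic zeta chain, at 29.7, 32.4 and 49.0 CPM against 29.5 and 22.6 CPM. HBZ lay just below all controls and HBE1 overlapped with replicate 1. Both were called, HBE1 (-0.33 and -0.53, adjusted p = 0.00839) and HBZ (-0.50 and -0.63, adjusted p = 0.0176).

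The adult alpha chains and the mu chain were below non-targeting replicates 2 and 3 and above replicate 1. HBA1 stood at 6948, 9764 and 10495 CPM against 8714 and 8419 CPM, HBA2 at 26539, 31805 and 34966 CPM against 27696 and 27348 CPM, and HBM, the mu chain, at 1888, 2723 and 3019 CPM against 2245 and 2152 CPM. HBA1 and HBA2 encode the same protein and are nearly identical, so their split is uncertain too. With all 7 libraries the log2 fold changes of HBA1, HBA2 and HBM were -0.08, -0.18 and -0.21, each with an adjusted p of 0.999. Without replicate 1 they were -0.24, -0.28 and -0.38, and all 3 were called (adjusted p = 0.0181, 0.00342 and 0.000366). HBQ1, the theta chain, and AHSP, the chaperone of free alpha chains, missed the threshold (-0.11 and -0.27, adjusted p = 0.0528, and -0.10 and -0.21, adjusted p = 0.0512). Of the 11 globin genes and AHSP tested, 7 were called lower, against 0.89% of all genes, and both guide 2 libraries were below replicates 2 and 3 in all 11, against 21.5% of all genes. With all 7 libraries, 9 of 11 fold changes were negative, 0 were called, and the median was -0.18. With the GC content correction 4 remained called without replicate 1, HBG1, HBG2, HBE1 and HBM, against 0.158% of all genes called lower.

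**Figure D4:**
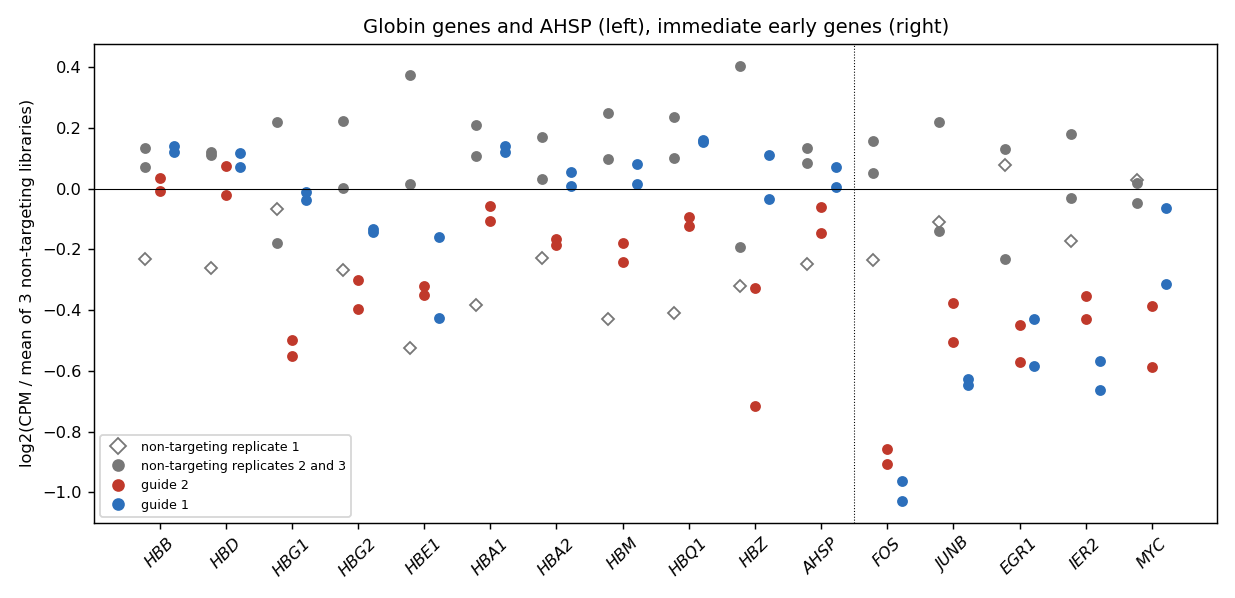
Level in each library relative to the mean of the 3 non-targeting libraries (vertical axis, log2 of the CPM ratio) for the globin genes and AHSP (left of the dotted line) and for 5 immediate early genes (right); open diamonds are non-targeting replicate 1. Guide 2 (red) lies below every control in HBG1, HBG2, HBZ and the 5 immediate early genes shown. These 5 were picked from a list in which 7 of 23 tested genes lay below all 3 controls. Guide 1 (blue) stays near the controls in HBG1.

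Shares within the globin counts need no scaling between libraries. Of 8 shares computed, 4 overlapped between guide 2 and the controls, and no exact p could pass 0.05. HBG1 and HBG2 together made up 9.06%, 8.68% and 9.69% of beta-like globin counts in non-targeting replicates 1, 2 and 3, and 6.92% and 7.52% with guide 2. The means were 9.14% ± 0.510 (SD, n = 3) and 7.22% ± 0.425 (SD, n = 2), and the groups did not overlap. An exact two-sided permutation test over the 10 splits of these 5 libraries gave p = 0.2, the smallest it can give. Guide 1 gave 7.75% and 7.81%, between the groups. HBB took 88.7%, 89.0% and 88.1% of beta-like counts in the controls and 90.7% and 90.2% with guide 2. HBB and the gamma chains make up nearly all beta-like counts, so this share mirrors the gamma share and is no separate result. Alpha-like chains took 16.4%, 16.7% and 17.2% of all globin counts in the controls and 15.5% and 15.5% with guide 2 (exact permutation p = 0.2), and 16.4% and 16.2% with guide 1. HBE1 took 0.0243%, 0.0288% and 0.0350% of beta-like counts in the controls and 0.0238% and 0.0240% with guide 2, just below replicate 1. The shares that overlapped were HBD of beta-like counts (2.20%, 2.32% and 2.21% against 2.36% and 2.26%), HBG1 of HBG1 and HBG2 counts (9.83%, 7.73% and 8.64% against 8.13% and 7.39%), and HBZ and HBM of alpha-like counts. Wilson 95% intervals of these shares were narrow, for example 6.88% to 6.95% for the gamma share in guide 2 replicate 1, and cover counting error only.

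KLF1, the factor that drives adult beta-globin and many red cell genes, stood at 506, 738 and 615 CPM in the controls and at 469 and 511 CPM with guide 2. The guide 2 libraries were level with replicate 1 and below the other 2. The log2 fold change was -0.34 (adjusted p = 0.999) and became -0.46 (SE 0.08, adjusted p = 0.000518) without replicate 1. KLF1 was also called with the GC content correction, and guide 1 gave 467 and 415 CPM. GFI1B, a repressor needed for erythroid maturation, was at 736, 951 and 977 CPM against 820 and 742 CPM, and was called (-0.18 and -0.30, adjusted p = 0.0136). Of the 19 tested factors of the GATA1 and TAL1 complex and its partners, 3 were called lower, KLF1, GFI1B and NFE2, against 0.89% of all genes, and 0 higher. GFI1B and NFE2 were not called with the GC content correction (adjusted p = 0.104 and 0.325). GATA1 itself had log2 fold changes of -0.06 and -0.16 and TAL1 of 0.07 and 0.07, with and without replicate 1, and neither was called. The list's median was -0.08 without replicate 1, and 0.01 with the GC content correction.

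The KLF1 window is shown because its promoter is a known target of GATA1. Capitals mark the GATA letters given above and CCAAT, on either strand; CCAAT occurred in 32% of the 35116 windows.
KLF1, chr19:12887202-12887451, minus strand: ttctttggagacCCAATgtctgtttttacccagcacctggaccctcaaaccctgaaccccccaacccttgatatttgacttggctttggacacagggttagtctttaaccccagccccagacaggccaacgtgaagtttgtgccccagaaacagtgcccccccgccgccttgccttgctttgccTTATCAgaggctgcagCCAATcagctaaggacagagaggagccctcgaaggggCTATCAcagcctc
It held 2 matches of each kind.

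Of the named genes called higher, NEAT1 had the smallest p. NEAT1, the scaffold of nuclear paraspeckles, stood at 290, 210 and 200 CPM in the controls and at 338 and 320 CPM with guide 2. Both guide 2 libraries were above every control. The log2 fold change was 0.49 (SE 0.15, adjusted p = 0.999), and 0.68 (SE 0.08, adjusted p = 9.85e-07) without replicate 1. LINC01021 was at 38.5, 21.1 and 26.1 CPM against 42.5 and 41.8 CPM, and FTX, a noncoding RNA of the X-inactivation region, at 14, 9.10 and 9.05 CPM against 14.7 and 17.1 CPM. Their log2 fold changes with all 7 libraries were 0.56 and 0.56, each with an adjusted p of 0.999. Without replicate 1 they were 0.85 (adjusted p = 4.75e-05) and 0.81 (adjusted p = 0.0116), and both were called. The groups did not overlap, though replicate 1 was close. MIAT was at 3.62, 4.23 and 4.63 CPM against 6.92 and 7.93 CPM, above all controls, but was not called (0.84 and 0.75, adjusted p = 0.104).

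MALAT1, a nuclear speckle RNA, changed direction with the choice of controls. It stood at 1799 CPM in replicate 1, 683 and 741 CPM in replicates 2 and 3, and 906 and 977 CPM with guide 2. Its log2 fold change was -0.19 with all 7 libraries and 0.40 (adjusted p = 0.00185) without replicate 1, so its direction rested on that library. Of 13 tested nuclear and snoRNA-host long noncoding RNAs, NEAT1 and MALAT1 were called higher, against 0.376% of all genes, and 0 lower. Both remained called with the GC content correction, against 0.188% of all genes.

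Of the 15 named higher genes, 6 are known for roles in splicing or RNA unwinding. RBM39, a splicing factor, stood at 160, 148 and 126 CPM against 188 and 196 CPM with guide 2, and was called (0.41 and 0.49, adjusted p = 0.00121). RBM6 was at 33.4, 39.7 and 37.4 CPM against 56.1 and 52.6 CPM (0.56 and 0.50, adjusted p = 0.0116), and RBM25 at 22.2, 19.8 and 17.1 CPM against 24.8 and 28.9 CPM (0.44 and 0.53, adjusted p = 0.0361). In these 3 genes both guide 2 libraries were above all controls, as the selection of named genes required. LUC7L3, a partner of the U1 particle, CLK1, a kinase of splicing factors, and DDX5, an RNA helicase, were called at 0.44, 0.40 and 0.33 (0.32, 0.29 and 0.27 with all 7 libraries) and also did not overlap with the controls. No splicing list was among those examined, and the genes were grouped after their names were seen. RBM39, RBM6 and DDX5 remained called with the GC content correction, and LUC7L3, CLK1 and RBM25 did not. The transcript GC content of these 6 genes was 37.2% to 48.1%, against a median of 49.2% over all genes.

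SUN2, an inner nuclear membrane protein that ties the nucleus to the cytoskeleton, stood at 11.4, 11.3 and 14.5 CPM in the controls, at 22.4 and 18.7 CPM with guide 2 and at 13.5 and 15.7 CPM with guide 1. Both guide 2 libraries were above all controls and above guide 1. The log2 fold change was 0.73 (SE 0.18, adjusted p = 0.999) and 0.68 (SE 0.16, adjusted p = 0.0191) without replicate 1, and its transcripts had a GC content of 61.2%. It was the 1 called gene of 19 tested in the nuclear envelope and condensation list, where 0.376% of all genes were called higher. The median of that list was -0.07 and -0.00 with and without replicate 1. STX2, a syntaxin of the plasma membrane, was at 33.9, 30.9 and 25.3 CPM against 41.6 and 44.1 CPM (0.51 and 0.60, adjusted p = 0.0116). TSC1, which restrains the growth kinase mTORC1, was at 74.4, 68.1 and 66.8 CPM against 86.0 and 87.2 CPM (0.31 and 0.36, adjusted p = 0.0353). AGPAT4, an enzyme of phospholipid synthesis, was at 95.9, 94.2 and 97.9 CPM against 124 and 121 CPM (0.35 and 0.35, adjusted p = 0.0289), and replicate 1 lay between replicates 2 and 3. GOLGA4, a golgin, and IVNS1ABP, a kelch protein, completed the 15 named higher genes at 0.38 and 0.40 (0.27 and 0.32 with all 7 libraries).

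Among the named lower genes, 3 serve cell division, and they were grouped so after they had been picked by p. KIFC1, a mitotic kinesin, stood at 11.0, 16.2 and 12.9 CPM against 8.51 and 8.02 CPM with guide 2. CCNF, cyclin F, was at 16.5, 22 and 20.7 CPM against 14.8 and 10.9 CPM, and CDCA5, which guards sister chromatid cohesion, at 6.62, 9.28 and 12.1 CPM against 5.98 and 5.66 CPM. All were below every control, as their selection required. Each was called, KIFC1 (-0.69 and -0.82, adjusted p = 0.0116), CCNF (-0.61 and -0.73, adjusted p = 0.0105) and CDCA5 (-0.67 and -0.86, adjusted p = 0.0299). KIFC1 and CCNF remained called with the GC content correction.

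The lists for the cell cycle leaned lower with all 7 libraries, without a call in the fit. In the list of G2 and mitosis genes, 24 of 26 tested had a negative fold change with all 7 libraries, against 55.3% of all genes, and in 10 both guide 2 libraries were below all 3 controls, against 6.86% of all genes. The median was -0.22 with all 7 libraries, -0.07 without replicate 1 and -0.19 with the GC content correction as well, and the list's median GC content was 44.1%. EdgeR called none of the 26 with or without replicate 1, and without it 5 were lower at an unadjusted p under 0.05 (8.09% of all genes). DESeq2 without replicate 1 called none, but gave no adjusted p for some genes, KIF23 and CCNB2 among them. KIF23, a kinesin of the dividing midbody, was at 14.1, 12.2 and 11.2 CPM against 9.44 and 6.61 CPM with guide 2 (-0.64 and -0.55, adjusted p = 0.135). CCNB2, cyclin B2, was at 38.9, 31.6 and 35.3 CPM against 26.9 and 26.1 CPM (-0.41 and -0.33, adjusted p = 0.151). Both were below every control.

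In the list of G1 and S phase genes, 24 of 29 tested were negative with all 7 libraries, against 55.3% of all genes, and 8 were below all 3 controls, against 6.86%. Without replicate 1, edgeR called 0, and 6 were lower at an unadjusted p under 0.05, against 8.09% of all genes. DESeq2 without replicate 1 also called 0, but gave no adjusted p for some genes, RRM2 among them. The medians were -0.17 and -0.15 with and without replicate 1. RRM2, a subunit of ribonucleotide reductase, was at 86.9, 79.1 and 77.6 CPM against 65.7 and 62.3 CPM with guide 2 and 71.0 and 62.3 CPM with guide 1 (-0.34 and -0.29, adjusted p = 0.105). MCM4, part of the replicative helicase, was at 39.3, 35 and 34.6 CPM against 29.7 and 28.3 CPM (-0.32 and -0.26, adjusted p = 0.262). For both genes guide 2 stood below every control, and neither was called.

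Ribosomal protein genes made up 18 of the 90 genes called lower, and 18 of 86 tested compares with 0.89% of all genes. A negative fold change was found in 75 of the 86 with all 7 libraries, against 55.3% of all genes, and in 78 without replicate 1, against 48.8%, where the median was -0.16. RPS2 stood at 262, 335 and 357 CPM against 294 and 254 CPM with guide 2 (-0.21 and -0.34, adjusted p = 0.0160), and RPL30 at 145, 196 and 212 CPM against 171 and 146 CPM (-0.22 and -0.36, adjusted p = 0.0165). In both, replicate 1 was the lowest control and the groups overlapped. Both guide 2 libraries were below replicates 2 and 3 in 57 of the 86 genes, against 21.5% of all genes, but below all 3 controls in 4, against 6.86%. For this list edgeR called 0 with all 7 libraries, and 0 had an unadjusted p under 0.05. Without replicate 1, 1 was called with the GC content correction, RPL30, against 0.158% of all genes called lower. DESeq2 called 34, when it called 200 of all 10107 genes in either direction.

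Of 16 red cell enzymes and carbonic anhydrases tested, 3 were called lower, PRDX2, GPX1 and PKLR, against 0.89% of all genes, and 0 higher, with a median of -0.18. With the GC content correction PKLR alone was called, against 0.158% of all genes called lower. DESeq2 called 5 lower, when it called 200 of all 10107 genes in either direction. PKLR, the red cell pyruvate kinase, stood at 92.7, 121 and 116 CPM against 94.4 and 80.6 CPM (-0.33 and -0.44, adjusted p = 0.00724). PRDX2, an abundant peroxidase, was at 3069, 3938 and 4099 CPM against 3437 and 3198 CPM (-0.16 and -0.28, adjusted p = 0.0116). In both genes the groups overlapped through replicate 1.

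Of 15 genes in the list for iron uptake and storage, 3 were called lower, FTH1, FTL and BLVRB, against 0.89% of all genes. None of these was called with the GC content correction (adjusted p = 0.0899, 0.323 and 0.165). BLVRB, a reductase, is in that list but neither takes up nor stores iron. FTH1, the heavy chain of ferritin, stood at 608, 691 and 764 CPM against 628 and 571 CPM with guide 2 (-0.20 and -0.28, adjusted p = 0.0332), while guide 1 gave 864 and 812 CPM. Of 30 genes of the membrane and cytoskeleton, 2 were called lower, GYPC and BSG, against 0.89% of all genes. Neither was called with the GC content correction (adjusted p = 0.127 and 0.478). DESeq2 without replicate 1 called 8 lower and 1 higher, when it called 200 of all 10107 genes in either direction. Of 20 genes of haem synthesis, edgeR called 0 without replicate 1. At an unadjusted p below 0.05, 3 were lower and 1 higher (8.09% and 6.83% of all genes). DESeq2 called 3 lower, UROD, ALAS2 and SLC25A39. The list had medians of -0.07 and -0.02 with and without replicate 1. SLC25A37, the mitochondrial iron importer, was at 10888, 11842 and 11005 CPM against 12643 and 12882 CPM, above every control, and was called higher with the GC content correction but not without it (0.18 and 0.16, adjusted p = 0.122).

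The remaining named lower genes were mixed in function. SLC37A1, a glucose-6-phosphate exchanger, stood at 37.3, 37.7 and 49.4 CPM against 28.9 and 27.6 CPM (-0.55 and -0.62, adjusted p = 0.00754). TAS1R3, a taste receptor subunit, was at 16.7, 23.9 and 23.3 CPM against 13.7 and 14.6 CPM (-0.58 and -0.73, adjusted p = 0.00464). PFKFB3, which makes an activator of glycolysis, was at 13.9, 16.5 and 23.1 CPM against 12.7 and 12.4 CPM (-0.50 and -0.64, adjusted p = 0.0332), and FURIN, a protease of the secretory pathway, at 146, 161 and 179 CPM against 132 and 138 CPM (-0.26 and -0.33, adjusted p = 0.0294). All 4 lay below every control, as their selection required, and SLC37A1 and TAS1R3 remained called with the GC content correction. Of the 15 named lower genes, 9 were called with that correction, and of the 15 named higher genes, 10.

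The other genes of smallest p with all 7 libraries were also mixed. Each lay wholly above or below the 3 controls, as their selection required. ZNF692, a zinc-finger protein, stood at 83.1, 97.6 and 90.5 CPM against 117 and 117 CPM with guide 2 (0.37 and 0.31, adjusted p = 0.0471). PIGL, an enzyme of GPI anchor synthesis, was at 6.09, 4.59 and 5.17 CPM against 8.42 and 9.25 CPM (0.74 and 0.86, adjusted p = 0.0399). On the lower side, SPRR2B, a small proline-rich protein, was at 4.06, 4.77 and 6.25 CPM against 2.81 and 2.27 CPM (-0.97 and -1.11, adjusted p = 0.0471), and ALG14, an enzyme of N-glycan synthesis, at 27.2, 26.7 and 29.4 CPM against 17.4 and 22.2 CPM (-0.49 and -0.50, adjusted p = 0.0488). These 4 were called. DDX39B, a helicase of RNA export, NUP85, a nuclear pore subunit, GSDMB, a gasdermin, and PARD3, a polarity protein, were above every control and not called without replicate 1, at 0.42, 0.51, 0.78 and 0.65 on the log2 scale (adjusted p = 0.0797, 0.0893, 0.0756 and 0.142). PAPD5, a poly(A) polymerase, was below every control and not called (-0.96 and -0.73, adjusted p = 0.102).

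Of 30 genes induced through ATF4 or by unfolded proteins, edgeR called 0 without replicate 1. At an unadjusted p below 0.05, 1 was lower and 3 were higher (8.09% and 6.83% of all genes). DESeq2 called CALR lower, when it called 200 of all 10107 genes in either direction. The list had medians of 0.06 and 0.05 with and without replicate 1, and in 7 both guide 2 libraries were above all 3 controls, against 8.16% of all genes. ASNS, asparagine synthetase, was at 216, 223 and 216 CPM against 245 and 244 CPM (0.16 and 0.16, adjusted p = 0.283), and HSPA5, the main chaperone of the endoplasmic reticulum, at 870, 970 and 908 CPM against 1046 and 997 CPM (0.16 and 0.12, adjusted p = 0.356). Of 15 heat shock genes, 2 were called lower, against 0.89% of all genes: HSPB1 (-0.22 and -0.32, adjusted p = 0.0297) and HSF1 (-0.17 and -0.29, adjusted p = 0.0369). Neither was called with the GC content correction (adjusted p = 0.261 and 0.349), and the GC content of their transcripts was 64.3% and 64.2%. None of 19 p53 target genes was called by edgeR without replicate 1, where 2 were lower and 3 higher at an unadjusted p under 0.05 (8.09% and 6.83% of all genes); with DESeq2, 1 was lower.

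Of 22 interferon response genes tested, 2 were called lower, ISG15 and IFI27, against 0.89% of all genes. Neither was called with the GC content correction (adjusted p = 0.127 and 0.179). DESeq2 called IFI27 alone, but gave no adjusted p for ISG15. ISG15, a ubiquitin-like protein, stood at 15.9, 30.1 and 25.4 CPM against 19.5 and 17.2 CPM with guide 2 (-0.37 and -0.60, adjusted p = 0.0348), inside the range that replicate 1 opened. IRF9, a subunit of the interferon-activated factor ISGF3, lay the other way, at 6.62, 8.02 and 6.36 CPM against 10.8 and 10.7 CPM, above every control but not called (0.62 and 0.57, adjusted p = 0.122). The 13 mitochondrially encoded genes, 50 histone genes, 21 genes of cholesterol synthesis, 18 of the lysosome, 40 of the proteasome and 19 of vesicle traffic held 0 edgeR calls with or without replicate 1. Without replicate 1, those at an unadjusted p under 0.05 were 1 higher in the mitochondrially encoded genes, 4 lower in the histones, 4 higher in cholesterol synthesis, 2 lower in the lysosome, 6 lower in the proteasome, and 1 lower and 3 higher in traffic. Over all genes tested, 8.09% were lower and 6.83% higher at that threshold. DESeq2 called 1 gene in these lists, PSMD2 of the proteasome, lower, when it called 200 of all 10107 genes in either direction. Of 60 nuclear respiratory chain genes, edgeR called 2 lower without replicate 1, against 0.89% of all genes, and 0 with GC content correction. At an unadjusted p under 0.05, 15 were lower and 2 higher. Of 24 genes of glycolysis and hypoxia, 1 was called lower, with and without that correction. At that threshold, 8 were lower and 2 higher. DESeq2 called 3 lower in each of these 2 lists.

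**Figure D5:**
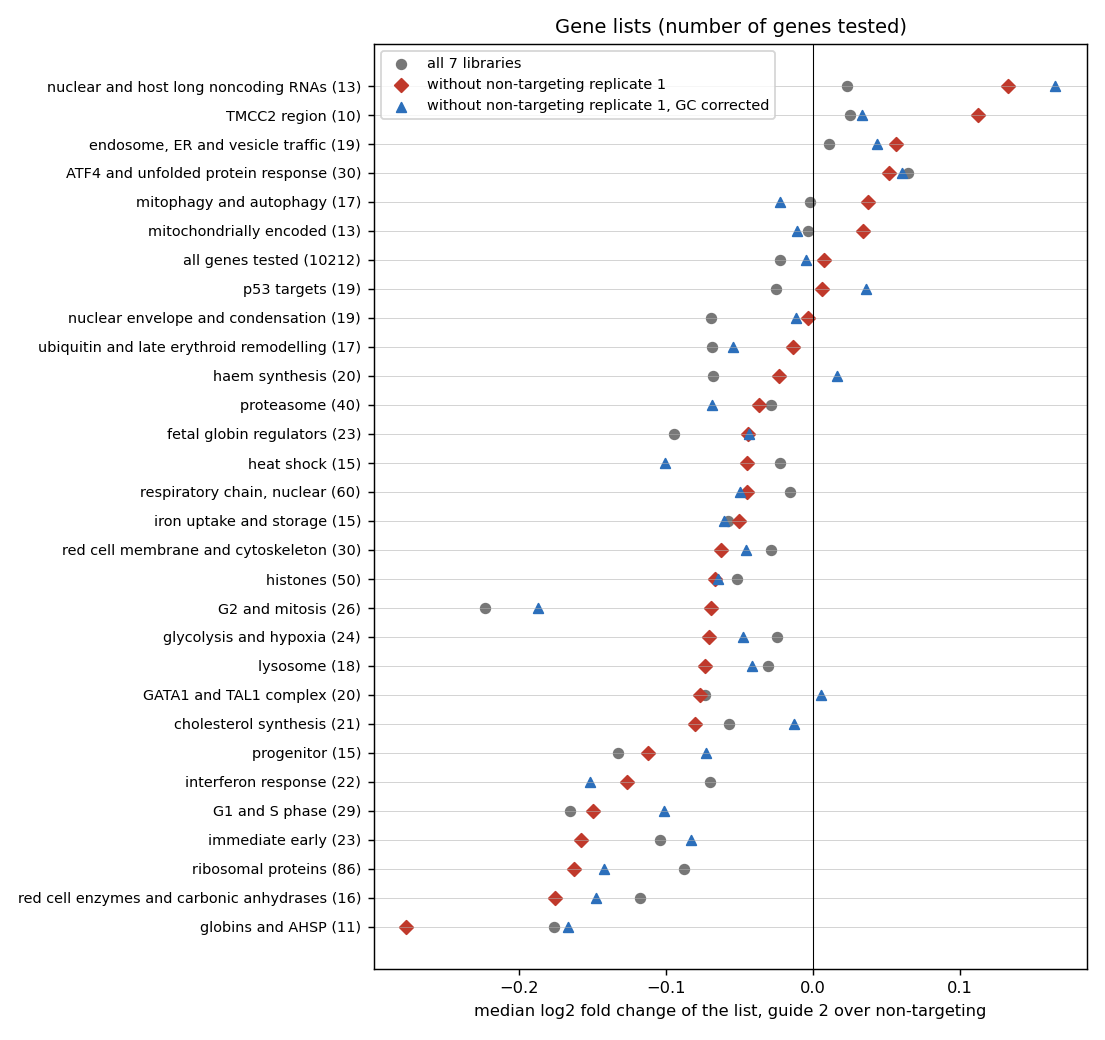
Median log2 fold change of guide 2 over non-targeting (horizontal axis) of each gene list (rows) in 3 settings: all 7 libraries, without non-targeting replicate 1, and without it with the GC content correction. Globins with AHSP have a median of -0.28 without replicate 1, G2 and mitosis genes move from -0.22 to -0.07 and back to -0.19, and the nuclear noncoding RNAs lie on the positive side.

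Guide 2 was also tested directly against guide 1 in the same fit. With all 7 libraries 0 of 10212 genes were called and 292 had an unadjusted p under 0.05 (2.86%); DESeq2 called 0 lower and 2 higher. Without non-targeting replicate 1, which belongs to neither group but enters the common dispersion, 32 genes passed (0.317%), 14 lower (0.139%) and 18 higher (0.178%) with guide 2. HBG1 was among the lower genes, at -0.50 (adjusted p = 0.000331), as were FTH1 at -0.48 (adjusted p = 8.27e-05), RPL30 at -0.41 (adjusted p = 0.00813), ISG15 at -0.72 (adjusted p = 0.0169), HSPB1 at -0.35 (adjusted p = 0.0279) and HBM at -0.26 (adjusted p = 0.0473). CAPRIN2, an RNA-binding protein, was higher with guide 2, at 56.6 and 55.3 CPM against 37.9 and 39.5 CPM with guide 1 (0.53, adjusted p = 0.0208), and stood at 38.5, 47.8 and 35.7 CPM in the controls. TMCC2, FOS, JUNB, EGR1, KLF1, NEAT1 and SUN2 were not called between the guides.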

How the data were processed

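RNA of 7 HUDEP-2 libraries was amplified with Smart-seq2 and indexed with a Nextera-based method, per the labels' protocols, which mark neither strand nor molecules. STAR and GRCh37 (hg19) are named, per the submitters' processing notes; for the counting program and annotation, nothing is stated (not given in the sources used here). The authors deposited whole-number read counts for 32738 genes, of which 13966 were at 0 in every library; totals were 9780800 to 11350113. Counts were tested with edgeR 4.0.16 (limma 3.58.1, R 4.3.3): filterByExpr with a minimum count of 10, TMM scaling, quasi-likelihood F-test in 1 fit of 3 groups, with 4 residual degrees of freedom (3 without non-targeting replicate 1) and Benjamini-Hochberg adjustment over all genes tested. CPM values of single genes are TMM-scaled from the fit of 7 libraries, marker sums are scaled by total counts alone, and standard errors come from the F statistic. The GC content correction removed, in each library, a lowess trend (span 0.3) of log2 CPM on the median GC content of each gene's transcripts, known for 92.3% of tested genes.

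Alternatives were DESeq2 1.42.0, limma-voom, other scalings and filters, a replicate block and leaving out each library. Named were TMCC2, FOS and HBG1, the tested neighbours and TMCC1, the 25 genes of smallest p with all 7 libraries, the 15 lower and 15 higher called genes of smallest p without replicate 1, up to 4 genes a list, and all globins. Genes chosen by p had to average 5 CPM or more in 1 of the groups and to lie wholly outside the controls' range. Pseudogenes, clones, readthrough transcripts and small RNAs were passed over, as were 2 called genes that are not reported here. The members and lists were chosen with earlier results of these data known. The globin shares, the choice among list members, DUSP1, NFE2, GPX1, FTL, BSG, IFI27, GATA1, TAL1 and the noncalled genes of the guide comparison were chosen after their values were seen, as was leaving 2 called genes unreported. Older symbols of 5 list members were matched by hand. On simulated counts of 10075 genes, the test with all 7 libraries recovered 70% of genes given a log2 fold change of 1. It recovered 16.7% of those given 0.5, with 3 unchanged genes among 89 calls. With replicate 1 left out of the same simulation (10031 genes), it recovered 58% and 8.33%, with 2 among 68. Recovery at the lower coefficient of variation of the real fit without replicate 1 (6.06%) was not tested. No libraries were duplicates.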

Additional observations from a re-analysis of the deposited data

How the results depend on the processing

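TMCC2 was called in all 22 alternatives run. With all 7 libraries, the counts of genes called lower and higher against non-targeting were 3 and 1 with no filter on low counts, 2 and 1 with DESeq2, 2 and 1 with the GC content correction, and 2 lower with that correction and the replicate block. Leaving out 1 library at a time gave 1 to 90 lower and 0 to 38 higher, and 90 and 38 were without non-targeting replicate 1. Without it, the counts were 16 and 19 with the GC content correction, 22 and 15 with the guide 2 and non-targeting libraries only, and 172 and 28 with DESeq2, which gave no adjusted p for 37 of the named genes. Guide 2 against guide 1 gave 2 higher with no filter, with DESeq2 and with the GC content correction, 0 to 14 lower and 0 to 18 higher when 1 library was left out, and, without replicate 1, 10 and 26 with the GC content correction and 91 and 23 with DESeq2.

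Deviations of same-numbered libraries correlated at -0.187 and -0.157 between non-targeting and guide 2, and at 0.028 between the guides. Each guide has 2 libraries, whose deviations from their mean are mirror images by construction. These correlations therefore cannot tell whether the numbers mark pairs or batches. With the replicate block, guide 2 against guide 1 gave 1 higher, also with the GC content correction; without replicate 1 the block gave 206 lower and 149 higher against non-targeting, and 163 and 155 against guide 1. The block turned HBA1 to 0.049, HBQ1 to 0.040 and TMCC1 to -0.016, and with the GC content correction HBA1 to 0.025 and HBQ1 to 0.020; without replicate 1 it gave TMCC1 -0.83, RBBP5 0.043, MALAT1 0.56, HBB -0.072 and HBD -0.12.

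Other log2 fold changes turned sign with the library left out, and most were small. Without non-targeting replicate 1, RBBP5 was 0.079, MALAT1 0.40, HBB -0.088 and HBD -0.086, and with the GC content correction MALAT1 was 0.26, HBB -0.064 and HBD -0.071. Over the fits that left out a library, RBBP5 ran from -0.18 to 0.079, MALAT1 from -0.43 to 0.56, TMCC1 from -0.83 to 0.57, HBB from -0.092 to 0.085, HBD from -0.12 to 0.090, HBA1 from -0.24 to 0.035 and HBQ1 from -0.28 to 0.026. The cause was not tested. Depth limits genes near 1 CPM, such as TMEM81 and TMCC1.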
